A study of Mus musculus with 17 samples.

Results

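The dystrophin glycoprotein complex was followed through its genes Dmd, Utrn, Sgca, Sgcb, Sgcd, Dag1, Dtna and Sspn, which were taken by gene symbol. These 8 genes each had 1 row among the 36172 gene rows of the deposited table, and all 8 were among the 13965 genes with enough counts to be tested. The tissue was the extensor digitorum longus (EDL), a shin muscle made mostly of fast fibres, sampled once from each of 17 aged mice. Of these, 7 had received a Hand2 vector and 10 an empty vector, in a study whose title names Hand2, sympathetic neurons and muscle loss with age. The Hand2 group held 3 females of 22 months, 1 female of 23 months, 1 male of 22 months and 2 males of 23 months. The empty-vector group held 2 females of 22 months, 3 females of 23 months, 1 male of 22 months and 4 males of 23 months. The labels do not give the strain, the type of vector, its promoter, or when, where and how it was given. The 4 Hand2 animals of 22 months are also those whose titles lack a sex letter, so in that group an effect of age and of whatever the titles mark cannot be told apart.

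Dystrophin is a long rod-shaped protein under the muscle fibre membrane that ties the actin cytoskeleton to a group of membrane glycoproteins. Dystroglycan carries the link across the membrane to laminin in the basement membrane, the sarcoglycans and sarcospan steady it within the membrane, and dystrobrevin and the syntrophins attach signalling proteins inside the fibre. Utrophin is the close relative of dystrophin that is concentrated at neuromuscular and myotendinous junctions, and loss of dystrophin in humans causes Duchenne muscular dystrophy.

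The libraries held 19181208 to 30942818 estimated counts in total (median 26091234). Hand2 itself, the bHLH transcription factor carried by the vector, lay between 1.02 and 26.3 CPM (counts scaled to library size) in Hand2 animals and between 0.0710 and 0.940 CPM in empty-vector animals. Within the Hand2 group it had 1.02 to 3.22 CPM in the 4 females and 1.25 to 26.3 CPM in the 3 males. Fast-fibre markers were present in every library, with Myh4, the myosin heavy chain of the fastest fibres, between 18992 and 31782 CPM, whereas the summed level of 4 neuron markers stayed between 0.352 and 1.57 CPM. No animal gave more than 1 library, and p-values are read against the spread between animals. Because whole muscle was sequenced, fewer cells of a type and less RNA per cell cannot be told apart.

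The member genes differed widely in transcript level. On a scale of CPM per kilobase of the longest coding transcript, Sgca, which encodes alpha-sarcoglycan, had the highest level, 152 ± 5.37 (SD, n = 17). Dag1, which encodes both dystroglycan subunits, had 64.8 ± 4.08 and Sgcb, encoding beta-sarcoglycan, 47.8 ± 2.87 CPM per kilobase. Sspn, encoding sarcospan, followed with 22.7 ± 2.36, Dtna, encoding alpha-dystrobrevin, with 18.4 ± 1.89, and Dmd with 9.60 ± 1.97 CPM per kilobase (SD, n = 17 each). Sgcd, encoding delta-sarcoglycan, and Utrn were lowest, at 2.98 ± 0.589 and 2.73 ± 0.268 CPM per kilobase. The animals' levels of Sspn and Dtna overlapped, as did those of Sgcd and Utrn, and the other neighbours in this order did not overlap. This order depends on the lengths used, and other transcript lengths were not tried. Coding transcripts ran from 1858 to 14910 bases for Dmd and from 660 to 12382 bases for Utrn. The smallest counts belonged to Sgcd, with 114 to 252 estimated counts per library, and the largest to Dag1, with 6411 to 11943, so Sgcd was measured least precisely.

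**Figure D1:**
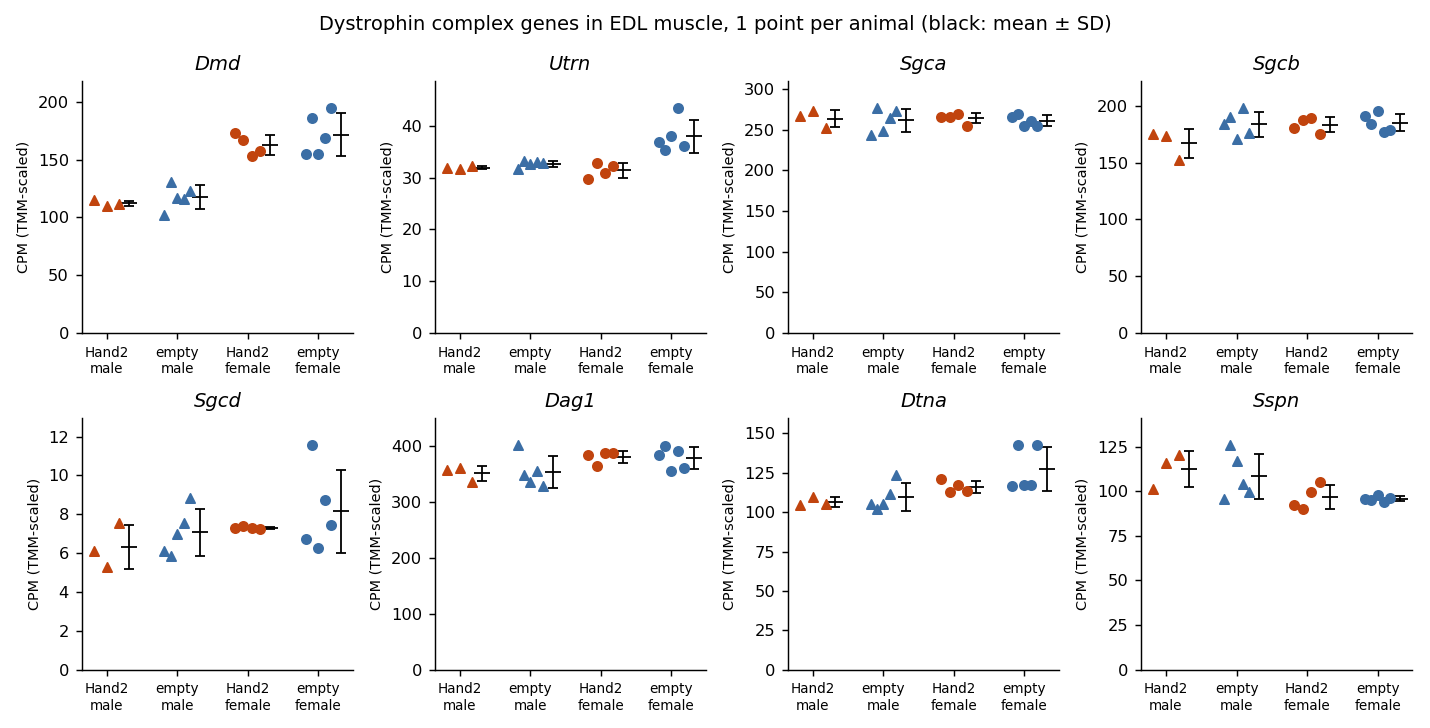
Level of each member in CPM scaled by trimmed mean of M values (vertical axes, from 0), with 1 point per animal in the order Hand2 males, empty-vector males, Hand2 females and empty-vector females, and the mean ± SD in black. Dmd lies at 102 to 131 CPM in males and 153 to 195 CPM in females, and Utrn at 29.7 to 32.8 CPM in Hand2 females and 35.3 to 43.4 CPM in empty-vector females.

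With the Hand2 vector and both sexes together, no member passed a 5% false discovery rate against the empty vector. In edgeR's quasi-likelihood test with sex as a covariate, 0 of 8 members and 0 of 13965 genes passed, a background of 0.0% (706 genes at an unadjusted p under 0.05), and DESeq2 called 1 gene, which was no member. The log2 fold change was positive for 2 members and negative for 6, with a median of -0.07 over the members, against a median of -0.004 over all genes tested. The member with the smallest p was Utrn, and the member with the widest interval Sgcd.

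Dystrophin transcripts differed between the sexes. In males Dmd (Entrez gene 13405, chromosome X, 82948870 to 85205050, plus strand, mm10) was lower than in every female. Dmd had a lowest, median and highest level of 102, 115 and 131 CPM in the 8 males, against 153, 167 and 195 CPM in the 9 females. Every male therefore lay below every female, which held for 49 of the 13965 genes tested, or 0.351%. Mean levels were 116 ± 8.44 CPM in males (SD, n = 8) and 168 ± 14.8 CPM in females (SD, n = 9). The log2 fold change of males against females, with vector as a covariate, was -0.54 ± 0.05 (SE, 95% interval -0.66 to -0.43), a ratio of 0.687, with edgeR adjusted p = 4.12e-06. By p-value Dmd ranked 24 of 13965 in that comparison, in which 786 genes (406 higher and 380 lower in males) passed, or 5.63% of those tested.

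The sex difference of Dmd had the same sign with either vector and at either age. Males had 110 to 115 CPM and females 153 to 173 CPM with the Hand2 vector. With the empty vector, males had 102 to 131 CPM and females 154 to 195 CPM. The vector effect in males minus that in females was 0.01 ± 0.11 on the log2 scale (SE, 95% interval -0.23 to 0.25, edgeR adjusted p = 0.9996). In animals of 23 months the log2 fold change of males against females was -0.55 ± 0.08 (SE, edgeR adjusted p = 0.00263). In the 7 animals of 22 months, of which 2 were male, it was -0.50 ± 0.09 and did not pass (adjusted p = 0.138).

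Among X-linked genes Dmd was 1 of 36 that were lower in males, of 463 tested, while 6 were higher. That is 7.78% of X-linked genes called lower, against 2.54% of 13497 autosomal genes (343 genes). The median log2 fold change of males against females was -0.03 over X-linked genes and 0.001 over autosomal genes. Of the X-linked genes tested, called or not, 34 had a lower log2 fold change than Dmd, and 6 had a smaller edgeR p. In the plot of X-linked genes most lie near 0. Other cell-type markers also differed between the sexes. All 5 slow-fibre markers were called lower in males, and their summed level was 59.7 to 202 CPM in males and 186 to 1059 CPM in females. Of 4 adipocyte markers 3 were called lower in males. Of 4 satellite-cell markers 1 was called lower, Cdh15, the satellite-cell cadherin. It had 34.6 ± 4.56 CPM in males (SD, n = 8) and 45.0 ± 4.51 CPM in females (SD, n = 9). Among those 4 satellite-cell markers, 2 had a positive and 2 a negative log2 fold change. Their summed level overlapped, at 39.7 to 53.2 CPM in males and 47.8 to 60.2 CPM in females. The summed adipocyte level overlapped, at 167 to 310 CPM in males and 160 to 291 CPM in females. The part of these cell types in the Dmd difference was not tested.

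**Figure D2:**
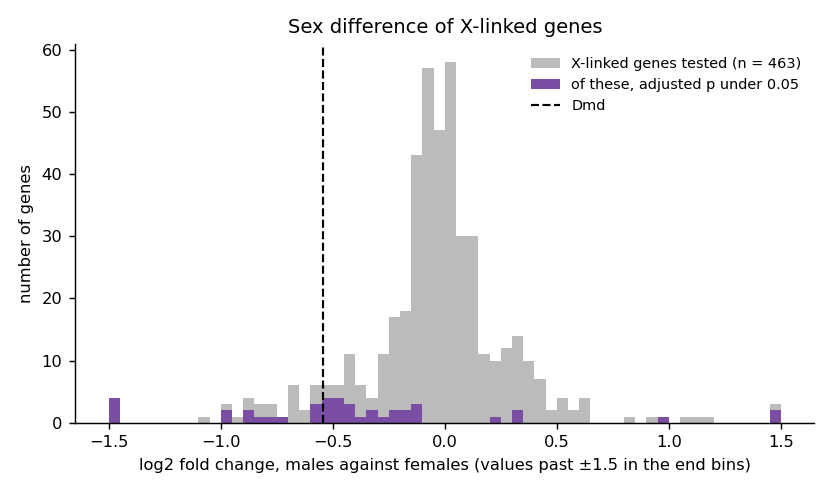
Number of X-linked genes (vertical axis) by log2 fold change of males against females (horizontal axis), for all 463 tested in grey and those with an adjusted p under 0.05 in purple. The dashed line marks Dmd at -0.54. Of the X-linked genes tested, 34, called or not, lie below it, and most genes lie near 0.

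The promoter window of Dmd is printed for its place at the start of the deposited locus. It is the RefSeq window of 250 bases before to 50 bases after the start in GRCm38.p6, plus strand, chrX:82948620-82948919, 5′ to 3′, and capitals mark E-boxes, the sites bHLH factors such as Hand2 bind. The motifs searched on both strands were the E-box (CANNTG), the N-box (TTCCGG), known for synaptic expression of utrophin and other junction genes, and the M-CAT box (CATTCC) of muscle genes.
Dmd: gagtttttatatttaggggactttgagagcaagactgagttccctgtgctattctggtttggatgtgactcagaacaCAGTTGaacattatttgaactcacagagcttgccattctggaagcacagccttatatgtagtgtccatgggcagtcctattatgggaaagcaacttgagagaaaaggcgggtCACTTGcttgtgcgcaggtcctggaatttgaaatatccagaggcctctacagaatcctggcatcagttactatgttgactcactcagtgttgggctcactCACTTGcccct
This window held 3 E-boxes, 0 N-boxes and 0 M-CAT boxes. Of 32851 promoter windows of the same length, 72.31% held at least 1 E-box, 14.9% an N-box and 14.66% an M-CAT box. Of the 8 members, 7 had a window in the table, and all but Sgcb held an E-box in at least 1 window.

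Between the vectors Dmd had levels that overlapped. It had 110 to 173 CPM with a median of 153 CPM in 7 Hand2 animals, and 102 to 195 CPM with a median of 143 CPM in 10 empty-vector animals. Hand2 against empty vector gave -0.07 ± 0.05 on the log2 scale in both sexes together (95% interval -0.19 to 0.04; SE, edgeR adjusted p = 0.921). It was -0.08 ± 0.08 in females and -0.07 ± 0.08 in males (adjusted p = 0.924 and 1, edgeR).

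Utrn, the utrophin gene (Entrez gene 22288, chromosome 10, 12382188 to 12861735, minus strand, mm10), was the member whose vector groups did not overlap in females, with lower levels in Hand2 animals. Utrn levels in Hand2 females were 29.7, 32.8, 30.8 and 32.3 CPM. In empty-vector females they were 36.9, 35.3, 38.0, 43.4 and 36.1 CPM. Every Hand2 female thus lay below every empty-vector female, a pattern held by 108 genes of 13965, or 0.773%. Hand2 females averaged 31.4 ± 1.41 CPM (SD, n = 4) and empty-vector females 38.0 ± 3.21 CPM (SD, n = 5). On the log2 scale the change was -0.27 ± 0.06 (SE, 95% interval -0.40 to -0.14), a ratio of 0.827.

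By p-value Utrn ranked 3 of 13965 in the comparison of females, but it did not pass in edgeR, with an unadjusted p = 0.000323 and an adjusted p = 0.783. No gene passed there (0.0% of those tested, 824 at an unadjusted p under 0.05). DESeq2 gave -0.28 ± 0.06 with an adjusted p = 0.0337, and Utrn was 1 of the 7 genes it called, 0.0502% of the 13949 it tested. That was the only call for Utrn in females among 28 alternative analyses, in which its log2 fold change stayed between -0.30 and -0.21. In females of 22 months the log2 fold change was -0.22 ± 0.09 (SE, 3 Hand2 and 2 empty-vector animals, edgeR adjusted p = 0.518). In those of 23 months it was -0.28 ± 0.12 (1 Hand2 and 3 empty-vector animals, adjusted p = 0.488).

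In males Utrn showed no such separation. The 3 Hand2 males had 31.8, 31.6 and 32.3 CPM, and the 5 empty-vector males had 31.7, 33.2, 32.6, 33.0 and 32.8 CPM. These ranges overlapped, and the log2 fold change was -0.03 ± 0.07 (SE, 95% interval -0.17 to 0.11, edgeR adjusted p = 1), with 0.0% of genes called in the comparison of males (396 at an unadjusted p under 0.05). The male minus female vector effect was 0.24 ± 0.09 (SE, 95% interval 0.05 to 0.43), with an unadjusted edgeR p = 0.0163 and an adjusted p = 0.9996, so a difference between the sexes did not pass. Of all genes 0.0% passed that test (474 at an unadjusted p under 0.05). Over both sexes the log2 difference of Utrn was -0.16 ± 0.05 (SE, 95% interval -0.27 to -0.05, unadjusted p = 0.00548, edgeR adjusted p = 0.921).

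The empty-vector females had higher Utrn levels than the remaining animals. Their lowest value, 35.3 CPM, exceeded the highest, 33.2 CPM, of the other 12 animals, which held for 10 of the 13965 genes, or 0.0716%. The spread within empty-vector females (SD 3.21 CPM) also exceeded that within empty-vector males (SD 0.604 CPM, n = 5 each), with empty-vector female replicate 4 highest at 43.4 CPM. Beside this, markers of other cells in Hand2 and empty-vector females overlapped in summed level for endothelium (333 to 401 and 336 to 501 CPM), smooth muscle (110 to 129 and 111 to 147 CPM) and Schwann cells (125 to 180 and 120 to 198 CPM). They also overlapped for red blood cells (204 to 871 and 383 to 1591 CPM), slow fibres (186 to 987 and 411 to 1059 CPM) and macrophages (94.5 to 120 and 71.9 to 98.6 CPM). Of these lists 1 smooth-muscle marker, Acta2, was at 0 in every library, and 4 of 6 endothelial, 2 of 3 smooth-muscle, 4 of 5 Schwann-cell, 3 of 3 red-cell, 5 of 5 slow-fibre and 1 of 4 macrophage markers had a negative log2 fold change in females, with 0 called. Their part in the Utrn values was not tested.

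The window around the start of the deposited Utrn locus is shown because Utrn separated the vector groups in females. It is the RefSeq window in GRCm38.p6, minus strand, chr10:12861686-12861985, 5′ to 3′, with E-boxes (CANNTG) in capitals.
Utrn: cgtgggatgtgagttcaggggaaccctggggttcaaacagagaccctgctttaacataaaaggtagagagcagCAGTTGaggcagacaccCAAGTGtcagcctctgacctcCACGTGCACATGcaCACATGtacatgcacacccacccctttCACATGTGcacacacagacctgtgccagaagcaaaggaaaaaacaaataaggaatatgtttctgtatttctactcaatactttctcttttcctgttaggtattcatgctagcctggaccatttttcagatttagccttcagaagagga
This window held 7 E-boxes, some of them overlapping, against a median of 1 over all 32851 windows, and 0 N-boxes and 0 M-CAT boxes. It was the only Utrn window searched, so any other start of the gene was not covered. Whether transcription starts here in this muscle was not tested, so the window may not be a promoter of Utrn. A match of letters is a description and does not show binding.

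Set against Dmd in the same animals, Utrn gave a ratio of CPM of 0.281 ± 0.0161 in males (SD, n = 8) and 0.210 ± 0.0299 in females (SD, n = 9). Within females the ratio was 0.171 to 0.206 in Hand2 animals and 0.186 to 0.257 in empty-vector animals, which overlapped. The ratio in males, 0.254 to 0.309, overlapped that in females, 0.171 to 0.257. Utrn itself did not pass between the sexes (log2 fold change of males against females -0.12 ± 0.05, edgeR adjusted p = 0.179).

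**Figure D3:**
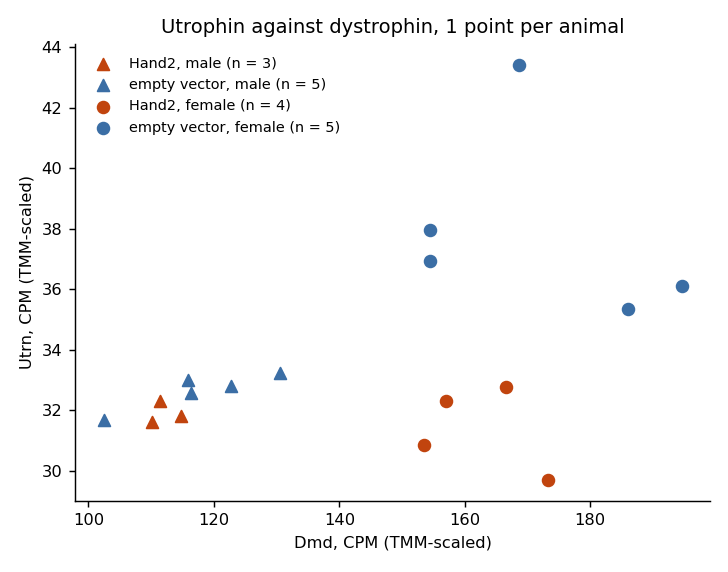
Utrn level (vertical axis, CPM) against Dmd level (horizontal axis, CPM), with 1 point per animal, Hand2 in orange, empty vector in blue, males as triangles and females as circles. Both axes start above 0. The 5 empty-vector females lie highest on the Utrn axis, at 35.3 to 43.4 CPM, and the 8 males lie left of all females, at 102 to 131 CPM of Dmd.

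Sarcospan transcripts were higher in males. Sspn (chromosome 6, 145934147 to 145965225, plus strand) had a lowest, median and highest level of 95.4, 110 and 126 CPM in 8 males, against 90.2, 95.4 and 105 CPM in 9 females. The ranges overlapped, and the spread was wider in males (mean 110 ± 11.2 CPM) than in females (96.1 ± 4.25 CPM; SD). Males against females differed by 0.19 ± 0.05 on the log2 scale (SE, 95% interval 0.08 to 0.31), with edgeR adjusted p = 0.0406. This call rested near the threshold: it was lost when any 1 of 12 of the 17 animals was left out (Hand2 replicates 1, 2, 3, 6 and 7 and empty-vector replicates 2, 3, 4, 5, 7, 8 and 9), with adjusted p up to 0.0877. With age as a further term it was 0.16 ± 0.05 (adjusted p = 0.0913), and in animals of 22 months alone 0.08 ± 0.07 (adjusted p = 0.972, edgeR). Against the empty vector, Sspn in Hand2 animals had a difference of 0.03 ± 0.05 on the log2 scale (SE, adjusted p = 0.957).

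Alpha-dystrobrevin transcripts did not quite reach the threshold between the sexes. Dtna (chromosome 18, 23415415 to 23659714, plus strand) had 102, 105 and 124 CPM as lowest, median and highest level in males, against 113, 117 and 143 CPM in females. Its ranges overlapped through empty-vector male replicate 10, at 124 CPM, while the other 7 males had at most 112 CPM. Males against females differed by -0.18 ± 0.05 on the log2 scale (SE, 95% interval -0.29 to -0.07), with edgeR adjusted p = 0.0530. It passed in 5 of 29 alternatives, among them DESeq2 (adjusted p = 0.0304) and the analysis without empty-vector replicate 10 (log2 fold change -0.20, adjusted p = 0.0256). Against the empty vector it was -0.09 ± 0.05 in both sexes together and -0.13 ± 0.07 in females (adjusted p = 0.921 and 0.863, edgeR).

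Dystroglycan and the sarcoglycans did not pass in any comparison. Dag1 (chromosome 9, 108204861 to 108263958, minus strand) had 329 to 402 CPM in males and 356 to 400 CPM in females, which overlapped, and a log2 fold change of males against females of -0.10 ± 0.04 (SE, edgeR adjusted p = 0.147). The highest male was empty-vector replicate 6, and without it Dag1 passed, at -0.13 (adjusted p = 0.0356). With the Hand2 vector its log2 fold change was -0.002 ± 0.04 (SE, 95% interval -0.09 to 0.09).

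Sgca (chromosome 11, 94962777 to 94976327, minus strand) was the steadiest member. It had 252 to 272 CPM in Hand2 animals and 244 to 277 CPM in empty-vector animals, and 244 to 277 CPM in males and 255 to 270 CPM in females, all overlapping. Its log2 fold change was 0.01 ± 0.03 with the Hand2 vector (95% interval -0.06 to 0.08) and 0.001 ± 0.03 in males against females (95% interval -0.07 to 0.07; SE). The standard deviation of its log2 CPM within the vector-by-sex groups, 0.0562, was at percentile 1.30 of all genes tested, and at percentile 7.73 of the 1087 genes within 1 log2 unit of its mean level.

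Sgcb (chromosome 5, 73632749 to 73647731, minus strand) had 175, 173 and 153 CPM in Hand2 males, against 184, 190, 171, 198 and 176 CPM in empty-vector males. Hand2 replicate 7 lay lowest of all animals, and the ranges overlapped. In males the log2 fold change was -0.14 ± 0.06 (SE, 95% interval -0.27 to -0.01), with an unadjusted edgeR p = 0.0378 and an adjusted p = 1. Without Hand2 replicate 7 it was -0.08 (unadjusted edgeR p = 0.247), and in animals of 22 months alone -0.01 (unadjusted p = 0.936, edgeR). Without empty-vector replicate 7 or 9 the unadjusted edgeR p was 0.0664 or 0.0948. In females it was -0.02 ± 0.06, and in males against females -0.06 ± 0.04 (adjusted p = 0.978 and 0.415, edgeR).

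Sgcd (chromosome 11, 46978783 to 47379302, minus strand), the member with the fewest counts, had 5.29 to 7.54 CPM in Hand2 animals and 5.86 to 11.6 CPM in empty-vector animals, which overlapped. Its log2 fold change with the Hand2 vector was -0.16 ± 0.12 (SE, 95% interval -0.41 to 0.10, edgeR adjusted p = 0.924), and in males against females -0.20 ± 0.12 (95% interval -0.46 to 0.05, adjusted p = 0.340). The 4 Hand2 females lay within 7.24 to 7.39 CPM, whereas the 5 empty-vector females spread over 6.25 to 11.6 CPM. Without the highest of these, replicate 2, the log2 fold change was -0.07 with the Hand2 vector in both sexes, -0.11 in males against females, and 0.01 with the Hand2 vector in females, against -0.15 with it.

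**Figure D4:**
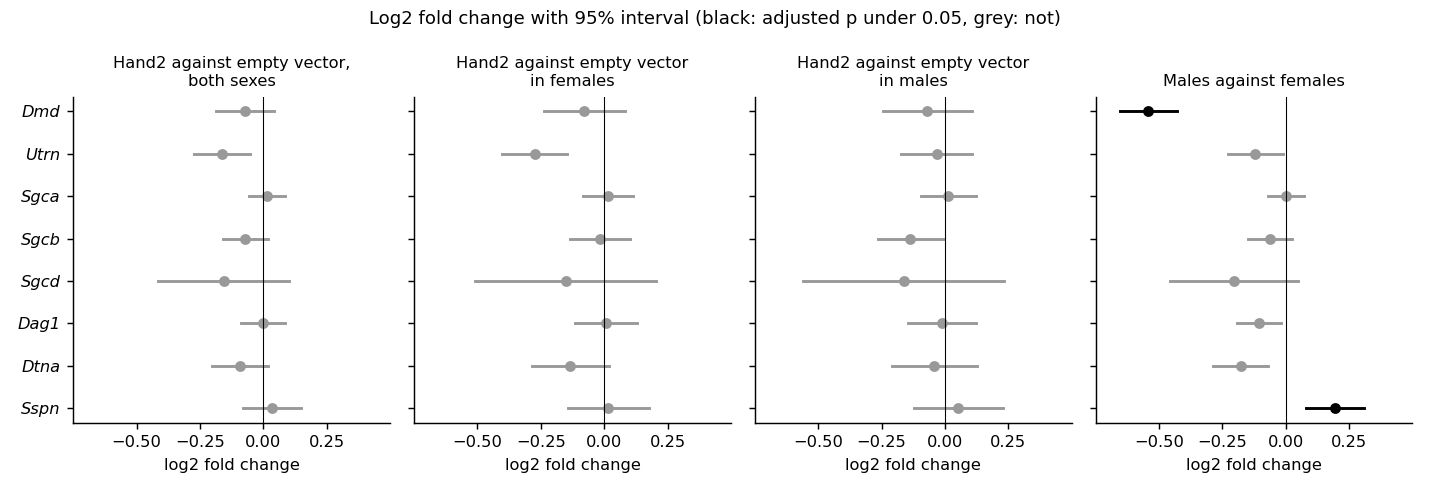
Log2 fold change (horizontal axes) with its 95% interval for each member in the comparisons of vectors in both sexes, in females and in males, and of males against females, in black where the edgeR adjusted p was under 0.05 and grey elsewhere. Dmd (-0.54) and Sspn (0.19) in males against females are the 2 values in black, and Utrn in females (-0.27) has an interval of -0.40 to -0.14 without passing.

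In males against females, 2 of 8 members passed, 1 higher (Sspn) and 1 lower (Dmd), where 5.63% of all genes did. The median log2 fold change was -0.11 over the 8 members and 0.001 over all genes tested. Only Dmd among the members had all males below all females, none had all males above all females, a pattern held by 69 genes or 0.494%, and the 6 members besides Dmd and Sspn did not pass.

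The members did not move as 1 block between animals. After centring log2 CPM within the 4 vector-by-sex groups, Pearson's r between members over 17 animals ran from -0.52 for Dtna with Utrn to 0.59 for Dmd with Dtna. Sgcd with Dtna had 0.58 and Sgca with Sgcb 0.46, while Dmd with Utrn had -0.14. These values share libraries and depth and are given as a description. The genes most like each member over the 17 animals were Ccl8, a chemokine, for Dmd (r = 0.86), Rapgef2 for Utrn (0.89) and Cutc for Sgca (0.85). For Sgcb it was Syncrip, an RNA-binding protein gene (0.79), and for Sgcd 4933415F23Rik (0.97), followed by Mb, the myoglobin gene (0.89). Dag1 was most like Ap3d1 (0.90), with the chaperone gene Hspa8 next (0.85). Dtna was most like Tcta and Myh1, a fast myosin heavy chain (0.88 each), and Sspn most like Spag4 (0.89). No member was among the 3 genes most like another. Each gene named here was picked for its r among 13964 genes over only 17 animals. A high r can therefore come from the choice itself, and none was tested.

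Of 12 other subunits, paralogues and bound proteins of the complex, 10 were tested, and Sgcz and Sntg1 had 2 and 10 estimated counts over 17 libraries. With the Hand2 vector 0 of 10 passed, with 6 positive and 4 negative log2 fold changes. Cav3, encoding the caveolin of muscle fibres, which binds dystroglycan, had -0.13 ± 0.06 (SE, unadjusted edgeR p = 0.0390, adjusted p = 0.921). Its level was 38.3 to 43.6 CPM in Hand2 females and 44.6 to 51.0 CPM in empty-vector females, which did not overlap, as for the 0.773% of genes with that pattern. Nos1, the neuronal nitric oxide synthase held at the membrane by the complex, had 0.20 ± 0.14, and Sntb2, encoding a beta-syntrophin, 0.25 ± 0.17 (SE, adjusted p = 0.921 each, edgeR).

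In males against females 2 of the 10 passed, where 5.63% of all genes did. Cav3 was higher, with 51.8 ± 5.69 CPM in males (SD, n = 8) and 44.5 ± 3.57 CPM in females (SD, n = 9), a log2 fold change of 0.21 ± 0.06 (SE, edgeR adjusted p = 0.0374). Drp2, an X-linked relative of dystrophin known from Schwann cells, was lower, with 10.4 to 12.3 CPM in males and 9.67 to 18.1 CPM in females and a log2 fold change of -0.33 ± 0.09 (adjusted p = 0.0447, edgeR). Neither call was firm: leaving out 1 animal ended that of Cav3 for 11 of 17 animals (adjusted p up to 0.0746) and that of Drp2 for 15 of 17 (adjusted p up to 0.0871). For Cav3 these were every Hand2 replicate but 5 and empty-vector replicates 2, 3, 4, 6 and 7, and for Drp2 every animal but replicate 2 of each vector. Sntb2 had 0.53 ± 0.17 and Nos1 -0.02 ± 0.14 (SE, adjusted p = 0.0754 and 0.951, edgeR). Dtnb, Sgce, Sntb1 and Sntg2 had -0.01, -0.003, -0.01 and 0.02 with the Hand2 vector and 0.43, -0.09, -0.09 and 0.17 in males against females, and none passed.

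**Figure D5:**
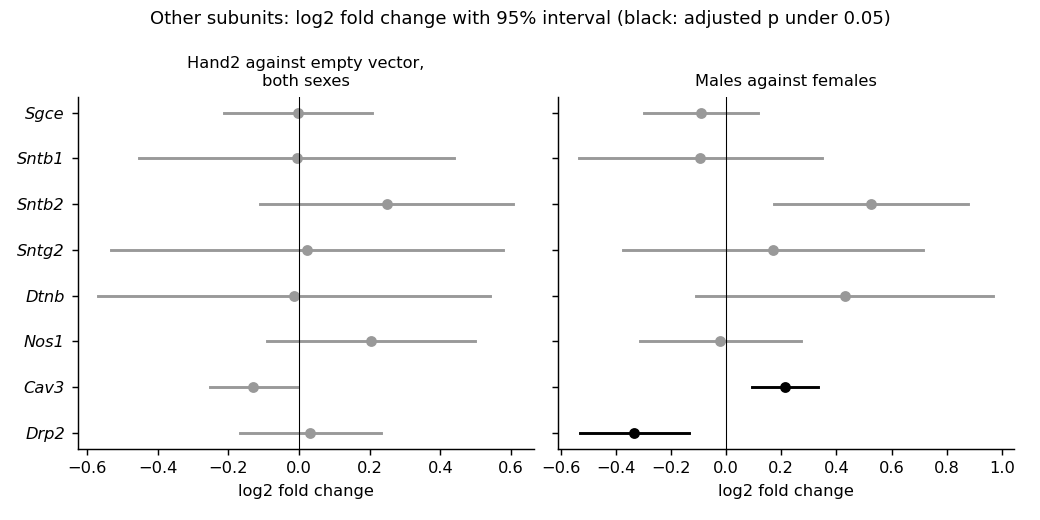
Log2 fold change (horizontal axes) with its 95% interval of 8 of the 10 other subunits and bound proteins tested, for Hand2 against empty vector in both sexes and for males against females, in black where the edgeR adjusted p was under 0.05. Cav3 (0.21) and Drp2 (-0.33) are in black in males against females, and none of the 8 is in the comparison of vectors.

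A list of matrix genes, whose proteins bind dystroglycan or sarcoglycans or lie with them, held 14 genes, all tested. They code for laminins, perlecan, agrin, nidogens, biglycan and collagen VI. Against the empty vector, 13 had a positive log2 fold change and 0 passed, with a median of 0.10 over the list and -0.004 over all genes, of which 6743 of 13965 were positive. In males all 14 were positive (median 0.21), and in females 8 were positive and 6 negative (median 0.02). Lama2, encoding the laminin chain of the muscle basement membrane, had 42.5 to 59.7 CPM in Hand2 animals and 35.6 to 51.4 CPM in empty-vector animals, which overlapped, and 0.22 ± 0.09 (SE, unadjusted edgeR p = 0.0257, adjusted p = 0.921). All 6 fibroblast markers and all 4 macrophage markers tested also had a positive log2 fold change with the Hand2 vector, with 0 called, and their part in the values of the matrix genes was not tested. In males against females 12 of the 14 matrix genes had a positive log2 fold change and 2 a negative one. Their median was 0.17, against 0.001 over all genes tested. Of the 14, 1 passed, where 5.63% of all genes did. Lamb2, a laminin beta chain of synaptic and junctional basement membrane, was lower, with 231 to 321 CPM in males and 297 to 363 CPM in females and a log2 fold change of -0.35 ± 0.05 (SE, edgeR adjusted p = 0.000541).

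Of 18 genes for the sugar chain by which dystroglycan binds laminin, 16 were tested and 0 passed in either comparison. Large, the enzyme that extends this chain, had -0.23 ± 0.08 with the Hand2 vector (SE, unadjusted edgeR p = 0.00907, adjusted p = 0.921) and -0.05 ± 0.08 in males against females (adjusted p = 0.749). Pomgnt1, a transferase acting early in the pathway, had 0.01 ± 0.03 with the Hand2 vector and -0.11 ± 0.03 in males against females (adjusted p = 0.989 and 0.0651, edgeR).

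Costamere genes were a list of 20, all tested, for integrin and cytoskeletal links between membrane and sarcomere and for membrane repair. With the Hand2 vector 18 had a negative log2 fold change, with a median of -0.05, and 0 passed, where 7222 of all 13965 genes were negative. In females 18 were negative and 2 positive (median -0.12), and in males 12 were negative and 8 positive (median -0.02). Xirp1, encoding an actin-binding protein of muscle, had 145 to 209 CPM in Hand2 animals and 164 to 1121 CPM in empty-vector animals, and -1.14 ± 0.35 (SE, unadjusted edgeR p = 0.00574, adjusted p = 0.921). Its high values lay in empty-vector females, at 221 to 1121 CPM, above the 152 to 209 CPM of Hand2 females, a pattern held by 0.773% of genes. Vcl, encoding vinculin, had -0.16 ± 0.07 and Flnc, encoding the muscle filamin, -0.25 ± 0.12 (SE, adjusted p = 0.921 each, edgeR).

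In males against females 2 of the 20 costamere genes passed, where 5.63% of all genes did. Synm, an intermediate filament protein gene, was higher, with 954 ± 134 CPM in males (SD, n = 8) and 762 ± 84.0 CPM in females (SD, n = 9) and a log2 fold change of 0.33 ± 0.08 (SE, edgeR adjusted p = 0.0308). Ank3, encoding an ankyrin that helps to hold dystrophin at costameres, was lower, with 128 ± 10.8 CPM in males (SD, n = 8) and 148 ± 11.9 CPM in females (SD, n = 9) and a log2 fold change of -0.21 ± 0.06 (SE, edgeR adjusted p = 0.0357). Leaving out 1 animal ended the call of Synm for 8 of 17 animals and that of Ank3 for 12 of 17, with adjusted p up to 0.0689 and 0.0781 (edgeR), and that of Lamb2 for 0 of 17. For Synm these were Hand2 replicates 2, 3, 4 and 6 and empty-vector replicates 2, 5, 7 and 8, and for Ank3 Hand2 replicates 1, 2, 3, 6 and 7 and empty-vector replicates 3 to 9.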

How the data were processed

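EDL muscle RNA of 17 mice was made into libraries with the Illumina TruSeq v2 kit (labels' protocols) and mm10 is the build in the submitters' processing notes. Per the file headers, the table comes from re-alignment to RefSeq genes. The aligner, the counter and any use of strand were not given in the sources used here. Per gene and sample, the authors deposited an estimated count, not scaled for depth, and normalized log2 values with a factor per sample and a baseline per gene, which served only as an alternative. Of 36172 rows, 16061 were at 0 in all samples.

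Samples were grouped by the vector and sex in their labels; replicate numbers are names only, in accession order. Estimated counts were rounded to whole numbers, filtered with edgeR's filterByExpr on the 4 vector-by-sex groups, scaled by TMM (trimmed mean of M values) and given robust quasi-likelihood F tests in edgeR 4.0.16 (R 4.3.3). Vectors and sexes were compared in 1 model holding both factors. Comparisons within a sex, and their difference, used the 4 groups. Benjamini-Hochberg adjustment ran over all genes tested, at 5%. An SE is the log2 fold change divided by the square root of F, intervals are 95%, and CPM are TMM-scaled. Lengths are those of the longest coding transcript in GENCODE M21, since the transcripts behind the counts are not given. Counts in loci overlapping the members were 0, or 1 over all libraries. The procedure was tested on simulated data.

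The members and lists were chosen with earlier results of these data known. Named were all members, the measured other subunits (2 are not reported here), up to 4 genes per further list by smallest p in each of the comparisons of vectors and sexes (the text names part of these), and the 3 genes most like each member. Alternatives were DESeq2 1.42.0, limma 3.58.1 (voom with quality weights, and on the deposited log2 values), other scalings, other filters, an age term, single ages, leaving out each animal and, added after seeing the data, the number in the titles as a block.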

Additional observations from a re-analysis of the deposited data

Results flagged for a closer look

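Over the 8 members, 40 groups of 4 to 10 animals were examined, and 1 held a value far from the others. Chance gives about 1 in 20 groups, so this was no more than chance gives. Groups of the same member share animals, so they are not independent of each other. Sgcd in the empty-vector animals had 11.6 CPM in replicate 2, a female of 22 months, and the next highest animal had 8.83 CPM, a gap of 0.48 of the range of the group. Without that animal the log2 fold change of Sgcd with the Hand2 vector was -0.07 in place of -0.16, and it did not pass in any comparison either.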

How the results depend on the processing

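Of 1136 values of members under 28 or 29 alternatives, besides the replicate block, 101 changed sign, and in none of these was the member past the threshold. Dmd passed in males against females in 28 of 29 alternatives, with log2 fold changes between -0.57 and -0.50, Sspn in 11, Dtna in 5 and Dag1 in 1.

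Members called in males against females numbered 2 in the reported analysis, 3 with DESeq2, with limma-voom and with the stricter filter (Dtna besides Dmd and Sspn), 1 with no filter, with an age term, with limma on the deposited log2 values, with 23 months alone and with empty-vector replicates 3, 4 and 5 left out together, 0 with 22 months alone, and 1 to 3 when each animal was left out. Genes called there numbered 1276 with DESeq2, 24 with 22 months alone, 413 with 23 months alone, 291 without empty-vector replicates 3, 4 and 5, and 476 to 954 when each animal was left out, against 786; the fits of single ages and those without animals hold fewer samples. Against the empty vector, DESeq2 called 1 gene in both sexes, 7 genes and 1 member in females, and 1 gene in males, and with 23 months alone edgeR called 6 in females. Leaving out each animal gave 0 to 1 genes in both sexes, 0 to 1 in females and 0 to 2 in males. The causes were not tested.

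The analysis without the other factor as a covariate gives no values within a sex. The sample titles end in numbers that recur across groups, and nothing in the labels says that a number marks a shared litter, batch or day. Of 11 pairs of same-numbered animals in different groups, 2 deviated from their group means with a correlation over 0.1 (range -0.09 to 0.14), and 1 of 15 animals correlated best with its own number. With the number as a replicate block, an alternative chosen after seeing the data, 282 genes and 1 member, Dmd at -0.53 (edgeR adjusted p = 0.000353), were called in males against females, and 0 genes in the other comparisons. Depth limits Sgcd most, and the vector groups within a sex hold only 3 to 5 animals. Intervals cover counting error and the spread between animals only.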
